A study of Mus musculus with 96 samples.

Results

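The urinary bladder and the kidney of 3-week-old mice were compared over all genes of a multi-tissue RNA-seq count table. All 6 bladder and all 6 kidney libraries were taken, 12 of the 96 libraries of the series, and each tissue held 3 libraries labelled wild type and 3 labelled Scx-/-, mice that lack the tendon transcription factor Scleraxis throughout the body. Whole organs were frozen, total RNA was extracted, and sequencing libraries were made by MuSeq, in which each RNA sample is barcoded at reverse transcription and samples are pooled before the library is constructed. The comparison asks which genes separate the 2 organs, with genotype as a covariate, and whether that separation differs between the genotypes.

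The kidney and the bladder are the upstream and downstream ends of one urinary tract. In the kidney, glomeruli filter plasma, and the nephron then recovers most of the filtrate: the proximal tubule takes back glucose, amino acids, phosphate and bicarbonate, the loop of Henle and the distal tubule take back salt, and the collecting duct adjusts water and acid. The bladder stores the final urine behind a urothelium, whose superficial umbrella cells carry plaques of uroplakin proteins over basal and intermediate keratin-rich cells, and empties through a wall of smooth muscle, the detrusor, set in collagen.

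Values are counts scaled to a common total (CPM), the share of a library's counts taken by a gene, which are not divided by transcript length and so are compared between tissues and not between genes. For a gene, 3 CPM values given in a row are the lowest, the median and the highest of the 6 libraries of a tissue. A log2 difference is bladder over kidney from the fit, ± its standard error with 6 libraries in each tissue, so that a positive value is higher in bladder. A gene was called higher in a tissue when its adjusted p-value was under 0.05 and its fold above 2. Where a tissue held no count of a gene, the fold is a lower bound that puts 3 counts over its 6 libraries, and where it held 1 to 3 counts, the ratio of the summed shares is given with a 95% interval that covers counting error only. Gene coordinates are those of GENCODE vM21 (GRCm38).

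Library totals ran from 242429 to 1015500 counts, with 9024 to 12660 genes detected, and were higher in the 3 wild-type kidneys (672218 to 1015500) than in the 3 Scx-/- kidneys (242429 to 447350). Scx itself had 0 counts in all 6 bladder libraries, 7, 3 and 0 counts in the wild-type kidneys and 0 in the Scx-/- kidneys, so these tissues give no check of the genotype labels. Across genes, log2(CPM + 1) correlated at 0.69 to 0.79 between bladder libraries, at 0.72 to 0.84 between kidney libraries and at 0.54 to 0.66 between the tissues. Sex is not given in the labels. Counts of 4 Y-linked genes summed to 40 to 140 in wild-type replicate 2 and in Scx-/- replicates 2 and 3 of both tissues and to 0 to 2 in the others, so both tissues held the same mix. The mix differed between the genotypes, and its part in any dependence on genotype was not tested. The bladder library Scx-/- replicate 2 stood apart: 15 hepatocyte genes summed to 6759.7 CPM there, against 282 to 1062 CPM in the other bladder libraries and 169 to 380.0 CPM in kidney, and it held 19 Xist counts beside Y-linked counts. Of the hepatocyte genes, 3 of 15 were called higher in bladder, beside 6.98% of all genes, with 1 of 15 without that library and 5 in the Scx-/- libraries alone.

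Of 17199 genes with a count in at least 1 of the 12 libraries, 1201 (6.98%) were called higher in bladder and 1390 (8.08%) higher in kidney. These shares are the background for every count of list members. The median log2 difference over all genes was -0.01. In 687 of the genes higher in bladder and 793 of those higher in kidney, every library of one tissue was above every library of the other; over all genes, 4.42% were above kidney in every bladder library and 4.87% above bladder in every kidney library. Of the called genes, 543 had a fitted fold above 16 towards bladder and 601 towards kidney, folds that depend on the prior count where a tissue held no count. Such genes were common: 239 of the genes called for bladder had no count in kidney while 251 of those called for kidney had none in bladder. The 2 genotypes were also compared on their own, with no library in common. In the wild type 950 genes were called for bladder and in Scx-/-, whose libraries held fewer counts, 584, with 462 in both, which is 48.6% of the first and 79.1% of the second. For kidney the numbers were 1208 and 675, with 588 in both, 48.7% and 87.1%. No gene was called in opposite directions by the 2 genotypes.

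**Figure D1:**
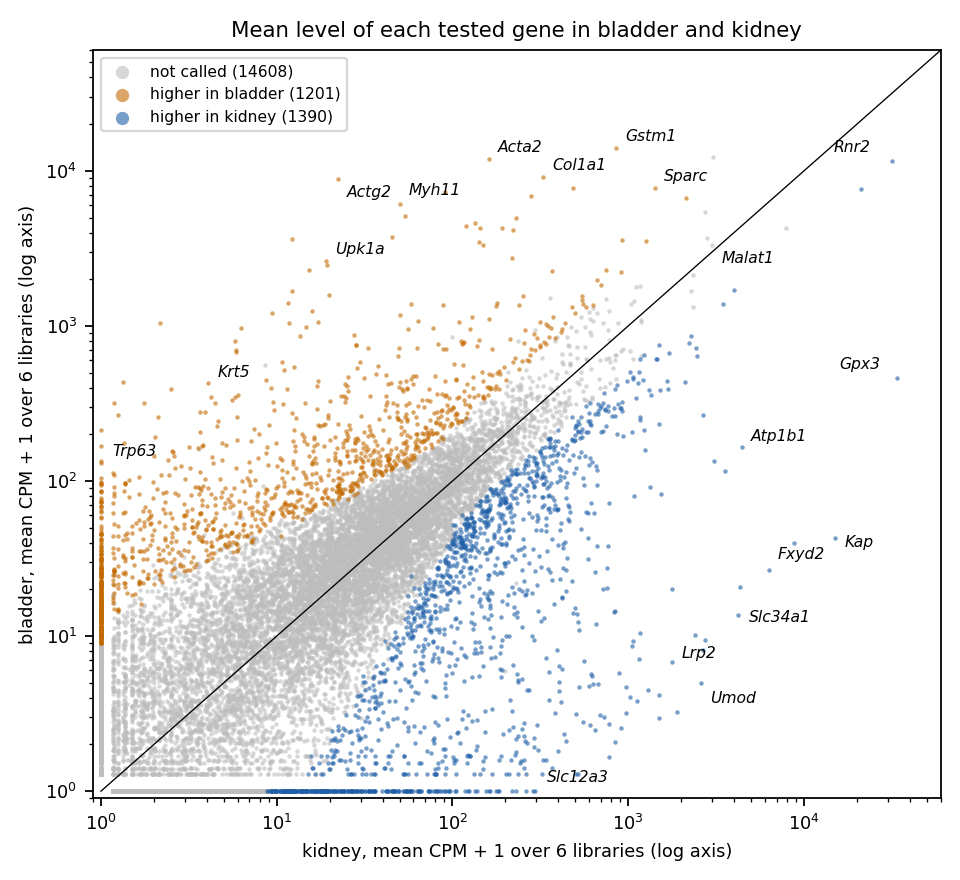
Mean CPM + 1 of each of the 17199 tested genes over the 6 kidney libraries (horizontal, log axis) and the 6 bladder libraries (vertical, log axis). Each point is a gene, coloured by its call; the line marks equal levels, with smooth muscle, urothelial and collagen genes in the upper left and nephron genes in the lower right.

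The contractile genes of smooth muscle all lay on the bladder side. All 25 of 25 genes of a contractile list were called higher in bladder, where 6.98% of all genes were, with a median log2 difference of 5.01 against -0.01 over all genes. Together these 25 genes took 51932 to 92180.0 CPM in bladder and 1407 to 2029 CPM in kidney. The count stayed at 25 without any one library and in the wild-type libraries alone, and was 24 in the Scx-/- libraries alone.

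Acta2 (chr19:34241090-34255590), smooth muscle alpha-actin, was at 8914, 11113 and 15468 CPM in bladder and at 99, 178 and 207 CPM in kidney (log2 difference 6.10 ± 0.16, adjusted p = 1.8e-232). Actg2 (chr6:83512905-83536265), the gamma-actin of visceral smooth muscle, was at 4489, 6281 and 16002 CPM in bladder and at 4.46, 20.2 and 38 CPM in kidney (log2 difference 8.59 ± 0.69, adjusted p = 1.0e-05). Both actins were higher in every bladder library than in any kidney library, and Actg2 had the wider spread within bladder. Myh11, the smooth muscle myosin heavy chain, was at 4879, 5927 and 7946 CPM in bladder and at 13.4, 52.2 and 89 CPM in kidney (log2 difference 6.90 ± 0.41, adjusted p = 8.9e-09). Tagln, the actin-binding protein transgelin, was at 5589, 7630.1 and 8941 CPM in bladder and at 42.5, 98.1 and 137 CPM in kidney (log2 difference 6.29 ± 0.18, adjusted p = 6.8e-243). Cnn1, calponin, was at 2312, 3261 and 5426 CPM in bladder and at 4.47, 13 and 16.5 CPM in kidney (log2 difference 8.27 ± 0.24, adjusted p = 6.3e-247). None of these filament genes overlapped between the tissues. A regulator and linker proteins of the filaments were called as well. Myocd (chr11:65176561-65269989), the cofactor that drives the contractile programme through serum response factor, was at 103, 214 and 318 CPM in bladder and 0 in all 6 libraries of kidney, at least 256-fold higher. The desmin-associated filament protein Synm was at 794, 941 and 1365 CPM in bladder and at 0, 0.568 and 2.98 CPM in kidney (log2 difference 9.05 ± 0.37, adjusted p = 8.1e-127), and Synpo2, an actin-bundling protein, at 247, 464 and 593 CPM and 0, 0 and 1.97 CPM, a ratio of 743 (95% counting interval 205 to 6147).

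Among the smallest differences on the contractile list were those of genes that other cells also use. Myl6, the myosin light chain shared with non-muscle myosin, was at 67.9, 149.8 and 266 CPM in bladder and at 0, 43.9 and 123 CPM in kidney (log2 difference 1.48 ± 0.41, adjusted p = 0.0029), and it was the 1 gene of the list whose ranges overlapped. Vcl, the adhesion protein vinculin, was at 239.8, 325 and 609 CPM in bladder and at 20.6, 72.8 and 181 CPM in kidney (log2 difference 2.05 ± 0.31, adjusted p = 1.0e-09). Among 19 actin, tropomyosin and myosin isoforms, 10 were called for bladder and 0 for kidney. The non-muscle isoforms Myh9, Myl12a and Tpm3 were not called: their log2 differences were 0.19, 0.18 and 0.11, with adjusted p of 0.67, 0.62 and 0.87. Cytoplasmic beta-actin, Actb, often used as a reference gene, was itself called for bladder, at 5514, 6152 and 8336 CPM against 1823, 2132 and 2416 CPM in kidney (log2 difference 1.54 ± 0.14, adjusted p = 3.8e-26). Markers of skeletal muscle moved with these genes: 8 of 15 tested were called for bladder and 1, Pvalb, for kidney. The count for bladder was 6 in the wild-type libraries alone and with the filter on low counts, and 2 in the Scx-/- libraries alone. The sum of these markers was 933 to 3241 CPM in bladder and 175 to 339.7 CPM in kidney. Acta1, skeletal alpha-actin, made up most of that sum in every bladder library, and Myh1 was at a median of 0 in both tissues. The part of striated muscle in the values above was not tested.

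The RefSeq promoter table (GRCm38.p6) held 24 promoters of 20 of the 25 contractile genes. The 250 bases before the start site were searched for the CArG box, the binding motif of serum response factor, on both strands. It was found in 3 of the 24 promoters, 12.5%, and in 1.47% of all 32851 promoters of the table. The matches are shown for Myl9 and Vcl because both were called for bladder, Myl9 with the larger difference. Myl9, the regulatory light chain, was at 3403, 4537 and 4772 CPM in bladder and at 99, 142 and 192 CPM in kidney (log2 difference 4.80 ± 0.19, adjusted p = 4.3e-139). Capitals mark the motif, and the stretches lie at chr2:156775214-156775463 and chr14:20929148-20929397 on the plus strand.
Myl9: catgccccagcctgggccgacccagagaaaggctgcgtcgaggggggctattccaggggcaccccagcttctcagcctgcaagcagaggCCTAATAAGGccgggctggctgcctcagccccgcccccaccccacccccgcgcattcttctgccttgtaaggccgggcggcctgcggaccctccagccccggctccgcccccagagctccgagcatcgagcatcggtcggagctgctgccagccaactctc
Vcl: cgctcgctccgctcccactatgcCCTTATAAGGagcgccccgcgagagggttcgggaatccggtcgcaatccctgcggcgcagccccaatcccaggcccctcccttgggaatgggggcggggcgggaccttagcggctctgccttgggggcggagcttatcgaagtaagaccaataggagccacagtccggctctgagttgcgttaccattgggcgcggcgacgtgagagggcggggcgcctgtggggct
In Myl9 the first base of the box lay 161 bases before the start site and in Vcl 227 bases before it. A match describes the letters of this window only.

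**Figure D2:**
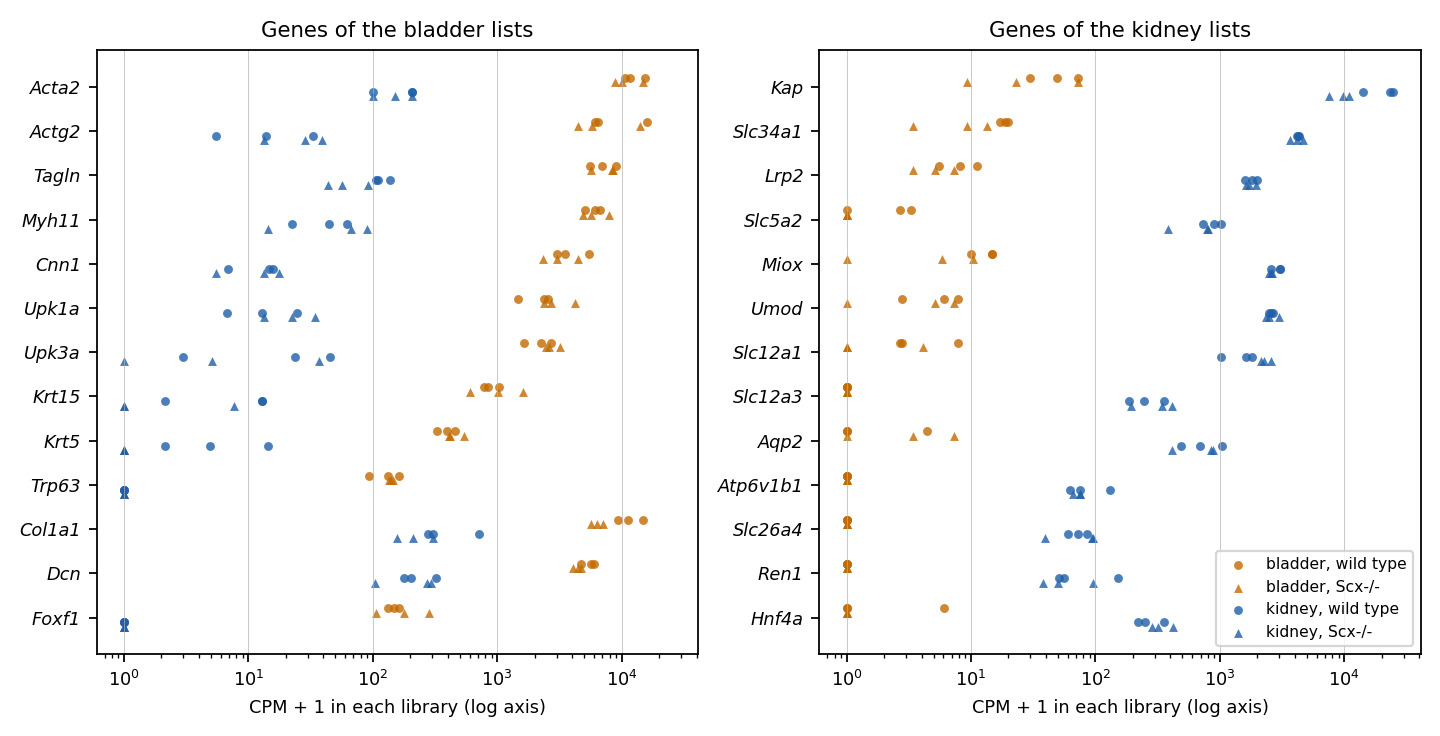
CPM + 1 of 26 genes in each of the 12 libraries (log axis), with 13 genes of the bladder lists on the left and 13 of the kidney lists on the right. Circles are wild-type and triangles Scx-/- libraries; for each gene shown, the 6 bladder points and the 6 kidney points do not overlap.

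The urothelium gave the next group. Of 14 tested umbrella-cell genes, 9 were called for bladder and 1 for kidney, with a median log2 difference of 4.71, or 4.91 with members at 0 in one tissue set to their bound, and of 19 tested basal and intermediate genes, 15 were called for bladder and 1 for kidney, with a median of 3.97. The 14 umbrella genes summed to 6019 to 11880.3 CPM in bladder and 123 to 270.5 CPM in kidney, with the 3 wild-type bladders (6019 to 9206 CPM) below the 3 Scx-/- bladders (9927 to 11880.3 CPM), which was not tested. In bulk tissue, fewer cells of a type and less RNA per cell cannot be told apart.

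The uroplakins, the membrane proteins of the umbrella-cell plaque, were at high level in every bladder library. Upk1a (chr7:30603092-30612847) was at 1475, 2475 and 4206 CPM in bladder and at 5.68, 16.9 and 33.5 CPM in kidney (log2 difference 7.02 ± 0.24, adjusted p = 1.4e-176). Its plaque partners Upk3a, Upk1b and Upk2 followed. Upk3a was at 1630.5, 2521 and 3182 CPM in bladder and at 0, 13.4 and 44.6 CPM in kidney (log2 difference 6.87 ± 0.78, adjusted p = 1.5e-04). Upk1b was at 1143, 1758 and 1897 CPM in bladder and at 5.95, 8.67 and 20.1 CPM in kidney (log2 difference 6.99 ± 0.27, adjusted p = 4.8e-140). Upk2 was at 279, 746 and 873 CPM in bladder and at 0, 2.1 and 20.1 CPM in kidney (log2 difference 6.98 ± 0.37, adjusted p = 2.3e-67). A related gene that is also a marker of mesothelium, Upk3b, was at 12.5, 21.9 and 39.1 CPM in bladder and at 0, 2.98 and 8.25 CPM in kidney and was not called (adjusted p = 0.13). Grhl3, a transcription factor of superficial urothelium, was at 31.2, 95.9 and 150.3 CPM in bladder and 0 in all 6 libraries of kidney, at least 115-fold higher. The gene of this list that was called for kidney was Bhmt2, a methyltransferase of methionine metabolism, at 0, 0 and 5.35 CPM in bladder and 8.25, 47.7 and 98.4 CPM in kidney (log2 difference -5.12 ± 1.05, adjusted p = 1.9e-05).

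Basal urothelium is marked by Trp63, the p63 transcription factor, and by keratin 5. Trp63 (chr16:25683763-25892102) was at 91.8, 136 and 162 CPM in bladder and 0 in all 6 libraries of kidney, at least 156-fold higher. Krt5 was at 328, 414 and 536 CPM in bladder and at 0, 0.568 and 13.4 CPM in kidney (log2 difference 6.69 ± 0.43, adjusted p = 2.5e-52). Both separated the tissues completely. Keratins as a family were one-sided, with 9 of 18 tested members called for bladder and 0 for kidney. Krt15 had the widest gap among the abundant keratins, 602, 923 and 1597 CPM in bladder against 0, 3.92 and 11.9 CPM in kidney (log2 difference 7.13 ± 0.33, adjusted p = 3.6e-89). The simple-epithelial keratins, which kidney tubules and ducts also carry, were unequal. Krt8 was at 130.3, 293 and 409 CPM in bladder and 58, 103 and 140.2 CPM in kidney (log2 difference 1.44 ± 0.32, adjusted p = 8.5e-05), with overlapping ranges. Krt7 was at 842, 1233 and 2121 CPM and 132, 167 and 248 CPM (log2 difference 2.81 ± 0.22, adjusted p = 6.7e-34). Krt18 and Krt19 had larger log2 differences, 3.97 ± 0.68 (adjusted p = 0.0023) and 4.98 ± 0.29 (adjusted p = 3.9e-59), with no overlap. Krt14, a keratin of basal stem-like urothelium, was at 0, 1.14 and 19.6 CPM in bladder and was not called (adjusted p = 0.21).

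Several other genes of the urothelial lists encode signals, transcription factors, surface proteins or a channel. Shh, the ligand that basal urothelium sends to the stroma, was at 24.2, 52 and 74.1 CPM in bladder and 0, 0.744 and 9.09 CPM in kidney (log2 difference 3.98 ± 1.04, adjusted p = 0.0015). Foxa1, a factor that keeps urothelium differentiated, was at 99.9, 128 and 168 CPM in bladder and 0, 0 and 22.4 CPM in kidney (log2 difference 4.21 ± 0.61, adjusted p = 1.4e-10). Ly6d and Psca, small membrane-anchored surface proteins, were higher in every bladder library. Ly6d was at 1572, 2135 and 3839 CPM in bladder and 0, 12.9 and 31.3 CPM in kidney (log2 difference 7.02 ± 0.75, adjusted p = 8.6e-05), and Psca at 846, 1028 and 1593 CPM and 3.07, 51.7 and 115 CPM (log2 difference 4.50 ± 0.36, adjusted p = 5.3e-14). Gata3 and Aqp3 are on the lists for both basal urothelium and collecting duct, and both were called for bladder. Gata3 was at 208, 304 and 390.2 CPM in bladder and 9.21, 63.8 and 148 CPM in kidney (log2 difference 2.08 ± 0.33, adjusted p = 1.0e-08). The adipogenic and urothelial receptor Pparg was at 21.8, 40.7 and 95.2 CPM in bladder and 0, 10.5 and 21.6 CPM in kidney, with no overlap, but was not called (adjusted p = 0.061). It was called for bladder by DESeq2, with library totals in place of TMM scaling, on counts thinned to the smallest library total and without bladder Scx-/- replicate 2, kidney Scx-/- replicate 3 or kidney wild-type replicate 2.

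The interstitial matrix was higher in bladder. Of 24 tested fibroblast and matrix genes, 21 were called for bladder and 0 for kidney, with a median log2 difference of 3.64. Their sum was 28592 to 67452 CPM in bladder and 3123 to 5617 CPM in kidney. Within bladder the sums of the genotypes did not overlap, at 47274 to 67452 CPM in the wild type and 28592 to 35513 CPM in Scx-/-, a difference that was not tested. Col1a1 (chr11:94936224-94953042), the main chain of type I collagen, was at 5679, 8205 and 14889 CPM in bladder and at 157, 290.1 and 707 CPM in kidney (log2 difference 4.72 ± 0.16, adjusted p = 6.6e-178), and Col3a1, of type III collagen, at 3509.5, 6432 and 11694 CPM and 103, 270.1 and 475 CPM (log2 difference 4.47 ± 0.17, adjusted p = 9.9e-83). The small proteoglycans of collagen fibrils were unequal among themselves. Dcn, decorin, was at 4101, 4718 and 5997 CPM in bladder and 103, 238 and 324 CPM in kidney (log2 difference 4.33 ± 0.18, adjusted p = 2.3e-127). Lum, lumican, was at 580.5, 604 and 1013 CPM in bladder and 0, 3.2 and 14.9 CPM in kidney (log2 difference 6.97 ± 0.36, adjusted p = 2.2e-79). Bgn, biglycan, was at 337, 403 and 671 CPM in bladder and 206, 283 and 359 CPM in kidney, with overlapping ranges, and was not called (log2 difference 0.52 ± 0.25, adjusted p = 0.18). Elastin, Eln, was at 254, 377 and 677 CPM in bladder and 70.6, 148 and 249.9 CPM in kidney (log2 difference 1.25 ± 0.28, adjusted p = 1.1e-04), with no overlap. Sparc, a collagen-binding matricellular protein, was abundant in both tissues, at 4666, 7110.4 and 11827 CPM in bladder and 1201, 1325 and 1873 CPM in kidney (log2 difference 2.30 ± 0.14, adjusted p = 2.1e-55).

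Adipose and nerve markers moved in the same direction as the stroma. Of 11 tested adipocyte genes, 4 were called for bladder and 0 for kidney, with a sum of 819 to 7315 CPM in bladder, highest in wild-type replicate 3, and 126 to 1062 CPM in kidney. Of 10 tested nerve and glial genes, 4 were called for bladder (2 with the filter on low counts) and 0 for kidney, with a sum of 536 to 1078 CPM and 0 to 70.6 CPM. Uchl1, an abundant neuronal ubiquitin hydrolase, was at 389, 573 and 778 CPM in bladder and 0, 8.41 and 24.6 CPM in kidney (log2 difference 5.88 ± 0.36, adjusted p = 9.3e-59), and Sox10, the glial factor, had 0 counts in kidney. Of 13 tested pancreatic acinar genes, 11 were called for bladder (5 with the filter on low counts) and 1, Cela1, for kidney, and the 15-gene list summed to 270.4 to 1609 CPM in bladder and 210.1 to 483 CPM in kidney. Their part in the values of the other lists was not tested. In the wild-type libraries alone 5 pancreatic genes were called for bladder and in the Scx-/- libraries alone 4.

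Genes for contraction signals and their receptors had calls on both sides. Of 13 tested members of a list of bladder neurotransmitter and calcium signalling genes, 6 were called for bladder and 2 for kidney, 1 without bladder Scx-/- replicate 1 or wild-type replicate 3 and 0 in the Scx-/- libraries alone. Over all genes, 6.98% were called for bladder and 8.08% for kidney. Pde5a, the phosphodiesterase that ends nitric oxide signals in smooth muscle, was at 516, 775 and 950.1 CPM in bladder and 6.89, 30.4 and 46.9 CPM in kidney (log2 difference 4.66 ± 0.30, adjusted p = 5.2e-53). Kcnma1, the large-conductance calcium-activated potassium channel, was at 126, 153 and 263 CPM in bladder and 0, 0 and 9.09 CPM in kidney (log2 difference 5.58 ± 0.61, adjusted p = 3.5e-18). Rgs2, which damps signals from Gq-coupled receptors, was at 376, 672 and 769.5 CPM in bladder and 0, 53.3 and 89.4 CPM in kidney (log2 difference 3.58 ± 0.29, adjusted p = 7.4e-31). All 3 were separate between tissues. The muscarinic receptors that receive the voiding signal were at the limit of detection: Chrm2 was at 0, 9.09 and 53.5 CPM in bladder and 0 in all 6 libraries of kidney, at least 22.8-fold higher, a call that was lost without bladder wild-type replicate 2 (adjusted p = 0.051) and in the Scx-/- libraries alone, and Chrm3 at 0, 1.56 and 12.5 CPM in bladder was not called (adjusted p = 0.69). The stretch channels Piezo1 and Trpv4 were not called, with log2 differences of -0.49 and -0.80 and adjusted p of 0.63 and 0.33. Trpv4 was called for kidney in the wild-type libraries alone and had the opposite sign, 0.42, in the Scx-/- libraries alone. The prostaglandin receptor Ptger3, also on the loop of Henle list, was called for kidney, at 0, 4.68 and 37.4 CPM in bladder and 8.25, 68.7 and 77.3 CPM in kidney (log2 difference -2.84 ± 0.83, adjusted p = 0.006), and was not called in either genotype alone.

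Position and lineage factors divided the organs. Of 18 tested bladder patterning factors, 8 were called for bladder and 0 for kidney, with 5 without kidney wild-type replicate 2 and 3 in the Scx-/- libraries alone. Foxf1 (chr8:121084386-121088144), a forkhead factor of visceral mesenchyme, was at 104, 153 and 279.8 CPM in bladder and 0 in all 6 libraries of kidney, at least 187-fold higher. Hand2, a mesenchymal basic helix-loop-helix factor, was at 56.2, 85.6 and 160.5 CPM in bladder and 0, 0 and 2.24 CPM in kidney, a ratio of 329 (95% counting interval 58.4 to 13038). Tbx3, a T-box factor, was at 91, 143 and 243 CPM in bladder and 0, 17.3 and 65.5 CPM in kidney (log2 difference 2.47 ± 0.48, adjusted p = 5.0e-06). The Hox genes mark position along the body axis. Of 31 tested, 2 were called for bladder, Hoxa11 and Hoxd13, where 6.98% of all genes were, and 8 for kidney, where 8.08% were. Hoxd13, of the most posterior group, was at 4.12, 25.7 and 96.9 CPM in bladder and 0 in all 6 libraries of kidney, at least 45.7-fold higher, and Hoxa11 at 28.1, 62.7 and 75.5 CPM in bladder and 0, 6.36 and 47.6 CPM in kidney (log2 difference 2.27 ± 0.83, adjusted p = 0.04). The call of Hoxa11 was lost in 8 of the 12 fits that left out 1 library, with adjusted p of 0.061 to 0.096, without the genotype term and in each genotype alone. Those called for kidney were Hoxb5, Hoxb7, Hoxb8, Hoxb9, Hoxc8, Hoxc9, Hoxd8 and Hoxd9. Hoxd8 was at 0, 40.9 and 70.3 CPM in bladder and 112, 141 and 261 CPM in kidney (log2 difference -2.28 ± 0.43, adjusted p = 2.3e-06). The Hox values are low, and 21 members were not called. Without kidney wild-type replicate 2, 5 were called for kidney, and in the Scx-/- libraries alone, 1 was called for kidney and 0 for bladder.

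In the kidney, the proximal tubule dominated. Of 29 tested proximal tubule transporters and endocytic receptors, 28 were called for kidney, where 8.08% of all genes were, and 0 for bladder, with a median log2 difference of -7.98, or -6.76 with members at 0 in one tissue set to their bound. Of 34 tested proximal tubule enzymes, 29 were called for kidney and 0 for bladder, with a median of -6.27. The 2 lists together reached far above bladder in every library: transporters summed to 12862 to 14552 CPM in kidney and 276 to 761 CPM in bladder, and enzymes to 73256 to 89581 CPM and 1169 to 2406 CPM. The 1 transporter that was not called was Slco1a1, an organic anion carrier with counts in 1 kidney library.

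The promoters of 2 transporters and 1 enzyme are shown because they hold GTTAAT, a half-site of the motif bound by HNF1 factors, which regulate proximal tubule genes. Letters were searched on both strands (GTTAAT or its reverse complement ATTAAC) in the 250 bases before the start site. A match was found in 5 of 33 transporter promoters (15.2%), in 7 of 36 enzyme promoters (19.4%) and in 6.43% of all promoters of the table. The stretches lie at chr13:55399398-55399647 for Slc34a1, chr19:8617746-8617995 for Slc22a6 and chr15:89334223-89334472 for Miox, all on the plus strand (GRCm38.p6), and capitals mark the matches.
Slc34a1: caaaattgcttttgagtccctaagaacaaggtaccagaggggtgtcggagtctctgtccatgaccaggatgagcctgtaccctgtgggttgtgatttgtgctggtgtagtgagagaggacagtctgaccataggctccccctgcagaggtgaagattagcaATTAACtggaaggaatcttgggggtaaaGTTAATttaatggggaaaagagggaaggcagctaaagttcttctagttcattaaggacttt
Slc22a6: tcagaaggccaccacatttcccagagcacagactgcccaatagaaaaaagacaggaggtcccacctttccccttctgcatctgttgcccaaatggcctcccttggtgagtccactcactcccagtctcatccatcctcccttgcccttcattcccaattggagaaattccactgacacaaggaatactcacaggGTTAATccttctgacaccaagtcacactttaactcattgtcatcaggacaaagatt
Miox: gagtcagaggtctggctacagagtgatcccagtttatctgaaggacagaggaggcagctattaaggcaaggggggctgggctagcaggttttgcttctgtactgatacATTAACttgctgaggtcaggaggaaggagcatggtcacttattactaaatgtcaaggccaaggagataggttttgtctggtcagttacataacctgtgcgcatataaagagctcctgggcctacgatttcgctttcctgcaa
Slc34a1 held 2 matches, whose first bases lay 89 and 61 bases before its start site, and Slc22a6 and Miox held 1 each, at 56 and 142 bases.

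Slc34a1 (chr13:55398187-55415592), the sodium-phosphate cotransporter that recovers most filtered phosphate, was at 2.42, 14.2 and 18.7 CPM in bladder and at 3668, 4231 and 4694 CPM in kidney (log2 difference -8.47 ± 0.23, adjusted p = 1.9e-284). Slc22a6, the organic anion transporter OAT1, was at 0, 0 and 1.78 CPM in bladder and 187, 252 and 783 CPM in kidney, a ratio of 512 (95% counting interval 141 to 4228). Miox, the oxygenase that starts myo-inositol breakdown, was at 0, 9.14 and 13.7 CPM in bladder and 2489.6, 2591 and 3034 CPM in kidney (log2 difference -8.36 ± 0.26, adjusted p = 3.2e-222). The lowest kidney library was above the highest bladder library for each. Slc5a2, the glucose transporter SGLT2, was at 0, 0 and 2.29 CPM in bladder and 381, 798 and 1027 CPM in kidney, a ratio of 1068 (95% counting interval 295 to 8823). Slc6a19 (chr13:73679745-73704865), the carrier of neutral amino acids, was 0 in all 6 libraries of bladder and at 135, 202 and 355 CPM in kidney, at least 158-fold higher. Slc13a3, a dicarboxylate carrier, was at 0, 0 and 1.7 CPM in bladder and 445, 486 and 680.5 CPM in kidney, a ratio of 1403 (95% counting interval 252 to 55457). The bladder counts of these 3 carriers did not exceed 2 over all 6 libraries. Lrp2 and Cubn, the receptors megalin and cubilin that take up filtered proteins, were both called. Lrp2 was at 2.42, 5.41 and 10.2 CPM in bladder and 1590.3, 1764 and 1991 CPM in kidney (log2 difference -8.27 ± 0.29, adjusted p = 2.8e-173), and Cubn at 0, 0 and 2.29 CPM and 90.7, 142 and 227 CPM, a ratio of 178 (95% counting interval 48.9 to 1471). Transporters that other cells share had smaller differences: the water channel Aqp1, also of endothelium, was at 98.8, 273 and 477 CPM in bladder and 539.8, 684 and 810.4 CPM in kidney (log2 difference -1.33 ± 0.24, adjusted p = 3.3e-07), and the endocytic adaptor Dab2 at 70, 110.4 and 168 CPM and 359, 427 and 688 CPM (log2 difference -2.20 ± 0.28, adjusted p = 1.2e-13).

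Among proximal tubule enzymes and secreted proteins, Gpx3 and Kap took the largest shares of kidney counts. Gpx3, the plasma glutathione peroxidase that kidney secretes, was at 269, 442 and 693 CPM in bladder and 20619.8, 35208 and 42598 CPM in kidney (log2 difference -6.28 ± 0.24, adjusted p = 4.9e-13). Kap, the kidney androgen-regulated protein, was at 8.23, 38.6 and 71.8 CPM in bladder and 7561, 12434 and 24811 CPM in kidney (log2 difference -8.53 ± 0.54, adjusted p = 1.4e-06). The span within kidney was wide for Kap, and every kidney library was above every bladder library. Enzymes of glucose release were also on that list. Pck1, the enzyme that commits to gluconeogenesis, was at 3.57, 94 and 357 CPM in bladder and 1292, 2244 and 6354 CPM in kidney (log2 difference -4.50 ± 0.89, adjusted p = 0.0063), a call that was lost in the wild-type libraries alone. G6pc, which releases free glucose, was at 0, 0 and 21.8 CPM and 307, 588 and 1023 CPM (log2 difference -7.51 ± 0.40, adjusted p = 6.2e-76). Mep1a, a brush-border metalloprotease, was at 0, 0.85 and 6.86 CPM in bladder and 1357, 1427 and 1819 CPM in kidney (log2 difference -9.54 ± 0.34, adjusted p = 4.9e-168). The 5 enzymes not called were Acsm3, Cyp2e1, Cyp4b1, Hpd and Anpep, whose ranges overlapped between the tissues. Cyp4b1 ranged over 8.93, 52.2 and 981 CPM in kidney (adjusted p = 0.057) and was called for kidney by DESeq2, with the filter on low counts, without the genotype term, with the replicate number as a block and without bladder Scx-/- replicate 1 or kidney wild-type replicate 3. Counts for Acsm, Cyp2j, Cyp4a and Akr1c genes can be split among near-identical copies and are uncertain in level.

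Genes of the later nephron segments were called mostly towards kidney. The loop of Henle list gave 14 of 18 for kidney, the distal convoluted and connecting tubule list 10 of 15, the principal-cell list 10 of 16 with 2 for bladder (1 without bladder wild-type replicate 1), and the intercalated-cell list 16 of 18. Umod (chr7:119462711-119479282), uromodulin of the thick ascending limb, was at 0, 4.61 and 6.86 CPM in bladder and 2355, 2536 and 2957 CPM in kidney (log2 difference -9.40 ± 0.28, adjusted p = 7.9e-235). Slc12a1, the salt cotransporter that loop diuretics block, was at 0, 1.74 and 6.86 CPM in bladder and 1016, 1961 and 2569 CPM in kidney (log2 difference -9.54 ± 0.32, adjusted p = 1.8e-194). Slc12a3, the thiazide-sensitive cotransporter of the distal tubule, was 0 in all 6 libraries of bladder and at 186, 293 and 408 CPM in kidney, at least 237-fold higher. Tmem52b was among the genes with the largest fold, 0 in all 6 libraries of bladder and at 136, 285 and 476 CPM in kidney, at least 259.7-fold higher. Calcium handling was part of the distal group. Calb1, the calcium-binding protein calbindin, was at 0, 1.74 and 4.85 CPM in bladder and 221, 522 and 813 CPM in kidney (log2 difference -7.78 ± 0.44, adjusted p = 1.2e-68), and S100g, a smaller calcium-binding protein, at 0, 8.42 and 24.7 CPM and 1783, 2417 and 3096 CPM (log2 difference -8.24 ± 0.27, adjusted p = 3.3e-145).

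Principal cells recover water through Aqp2, the vasopressin-regulated channel, which was at 0, 1.21 and 6.24 CPM in bladder and 408, 771 and 1037 CPM in kidney (log2 difference -8.46 ± 0.40, adjusted p = 1.8e-96). Hsd11b2, the enzyme that shields the mineralocorticoid receptor from glucocorticoid, was at 0, 0 and 12.5 CPM in bladder and 305, 348 and 617 CPM in kidney (log2 difference -6.56 ± 0.43, adjusted p = 1.8e-50). The sodium channel subunits differed from each other. Scnn1a, the alpha subunit, was at 0, 0.892 and 22.1 CPM in bladder and 53.6, 143 and 214 CPM in kidney (log2 difference -4.92 ± 0.61, adjusted p = 2.0e-14). Scnn1b and Scnn1g were not called, with log2 differences of -1.46 and 0.34 and adjusted p of 0.12 and 0.81, and their ranges overlapped. Intercalated cells pump protons through a vacuolar ATPase. Of 22 tested subunit genes of that pump, 10 were called for kidney and 0 for bladder. Atp6v1b1, the renal B1 subunit, was 0 in all 6 libraries of bladder and at 61.1, 73.8 and 129 CPM in kidney, at least 68.2-fold higher, while its general counterpart Atp6v1b2 was at 16.5, 40.3 and 65.5 CPM and 82.9, 203 and 281 CPM (log2 difference -2.40 ± 0.41, adjusted p = 7.7e-08). The anion exchanger Slc26a4, pendrin, was 0 in all 6 libraries of bladder and at 38, 77.8 and 94.9 CPM in kidney, at least 59.8-fold higher. Car12, a membrane carbonic anhydrase, was 0 in all 6 libraries of bladder and at 202, 260.4 and 322 CPM in kidney, at least 214-fold higher, and cytosolic Car2 was at 6.86, 20.6 and 36.4 CPM in bladder and 392, 476 and 627 CPM in kidney (log2 difference -4.74 ± 0.34, adjusted p = 8.6e-41).

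Of 18 tested podocyte and glomerular genes, 6 were called for kidney, where 8.08% of all genes were, and 1 for bladder, with a median log2 difference of -1.38. Enpep, an aminopeptidase that podocytes share with the tubule brush border, was at 0, 5.26 and 22.1 CPM in bladder and 138, 199.8 and 286 CPM in kidney (log2 difference -4.61 ± 0.49, adjusted p = 1.2e-19), with no overlap. Nphs1, nephrin of the filtration slit, was 0 in all 6 libraries of bladder and at 0, 7.56 and 16.5 CPM in kidney and was not called (adjusted p = 0.071). Plce1, a phospholipase linked to podocyte disease, was the member called for bladder, at 59.5, 94.7 and 114 CPM in bladder and 0, 3.98 and 36.4 CPM in kidney (log2 difference 3.47 ± 0.72, adjusted p = 2.7e-05). Wt1, which podocytes and mesothelium share, was at 0, 33.6 and 105 CPM in bladder and 0, 7.66 and 20.8 CPM in kidney and was not called (adjusted p = 0.1). The count of glomerular calls for kidney was 4 to 7 without any one library and 2 in the Scx-/- libraries alone.

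The endocrine and mineral genes of the kidney were nearly all called: 12 of 13 tested for kidney and 0 for bladder. Ren1, renin, was 0 in all 6 libraries of bladder and at 37.1, 52.4 and 150.2 CPM in kidney, at least 63.6-fold higher. The vitamin D receptor Vdr was at 0, 0 and 24.2 CPM in bladder and 190.1, 219 and 330.0 CPM in kidney (log2 difference -6.03 ± 0.52, adjusted p = 3.6e-29), and Cyp24a1, which inactivates vitamin D, at 0, 0 and 3.12 CPM and 49.2, 94.4 and 620.1 CPM, a ratio of 379 (95% counting interval 67.7 to 14993). Both genes were separate between tissues, with Cyp24a1 uneven within kidney. Pth1r, the parathyroid hormone receptor, was at 7.27, 34.4 and 85.7 CPM in bladder and 526, 629 and 872 CPM in kidney (log2 difference -4.27 ± 0.30, adjusted p = 1.4e-43). Epo and Kl were at 0 in all 12 libraries and were not tested.

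Of 20 tested nephron lineage transcription factors, 17 were called for kidney and 0 for bladder. Hnf4a (chr2:163506808-163572910), the nuclear receptor of proximal tubule differentiation, was at 0, 0 and 5.1 CPM in bladder and 219, 300.5 and 417 CPM in kidney, a ratio of 250.2 (95% counting interval 85.4 to 1215). Pax8, the paired-box factor kept by nephron epithelium, was 0 in all 6 libraries of bladder and at 29.5, 65.9 and 135 CPM in kidney, at least 54.3-fold higher. The factors of nephron progenitors were at or near 0 in both tissues: Six2 had 1 count over the 12 libraries, and Cited1 was not called (adjusted p = 0.58). Irx1 and Pou3f3, factors of segment identity, were called for kidney: Irx1 was 0 in all 6 libraries of bladder and at 43.1, 88.6 and 140.2 CPM in kidney, at least 72.4-fold higher, and Pou3f3 was at 0, 0 and 2.29 CPM and 36.8, 79.4 and 119.6 CPM, a ratio of 197 (95% counting interval 35.1 to 7821).

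The list for uptake of vitamins and their carriers was mixed: of 12 tested genes, 4 were called for kidney, 2 for bladder and 6 in neither direction, beside 8.08% and 6.98% of all genes. Folr1, the folate receptor, was at 0, 0 and 21.8 CPM in bladder and 505, 616 and 751 CPM in kidney (log2 difference -7.29 ± 0.39, adjusted p = 1.1e-60). Tcn2, the carrier of vitamin B12 in plasma, was at 50, 101 and 106 CPM in bladder and 1151, 1299 and 1575 CPM in kidney (log2 difference -3.98 ± 0.24, adjusted p = 9.6e-61). Both separated the tissues, as did Lrp2 and Cubn, the receptors that take up such carriers. Rbp4, the plasma carrier of retinol, was called for bladder, at 131, 171 and 465 CPM in bladder and 0, 2.1 and 28.3 CPM in kidney (log2 difference 4.68 ± 0.48, adjusted p = 1.6e-20).

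Among all genes with at least 100 CPM in the higher tissue and no overlap, the 10 with the largest fitted difference on each side held several outside the lists. For bladder they were Myocd, Foxf1, Ank1, Synm, Trp63, Synpo2, Gjb6, Adam33, Stum and Actg2. Ank1, an ankyrin that links membranes to the spectrin skeleton, was at 153, 279 and 609 CPM in bladder and 0, 0 and 1.14 CPM in kidney, a ratio of 1186 (95% counting interval 212 to 46907). Adam33, a metalloprotease of mesenchymal cells, was at 173, 239 and 471 CPM in bladder and 0, 0 and 1.49 CPM in kidney, a ratio of 937 (95% counting interval 168 to 37072). For kidney they were Tmem52b, Slc12a3, Car12, Hpn, Slc13a3, Slc5a2, Slc6a18, Slc6a19, Mfsd4b1 and Slc12a1, of which 6 are solute carriers. Hpn, the serine protease hepsin, was 0 in all 6 libraries of bladder and at 156, 219 and 338 CPM in kidney, at least 185-fold higher. Nox4, an oxidase abundant in renal tubules, was at 0, 0 and 1.78 CPM in bladder and 239, 287 and 537 CPM in kidney, a ratio of 768 (95% counting interval 138 to 30354). Counts of Mfsd4b1 can be shared with its near-identical neighbours. Of 8 tested inwardly rectifying potassium channels, 3 were called for kidney and 0 for bladder, and of 9 tested chloride channels, 4 and 0. Kcnj16, a potassium channel subunit, was at 0, 1.14 and 3.57 CPM in bladder and 375, 709 and 915 CPM in kidney (log2 difference -8.62 ± 0.42, adjusted p = 1.0e-89), and its partner Kcnj10 at 0, 0 and 1.78 CPM and 31.3, 88.6 and 117 CPM, a ratio of 198 (95% counting interval 35.2 to 7849). Bsnd, the chloride channel subunit barttin, was 0 in all 6 libraries of bladder and at 44.3, 97.1 and 141 CPM in kidney, at least 73.9-fold higher.

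**Figure D3:**
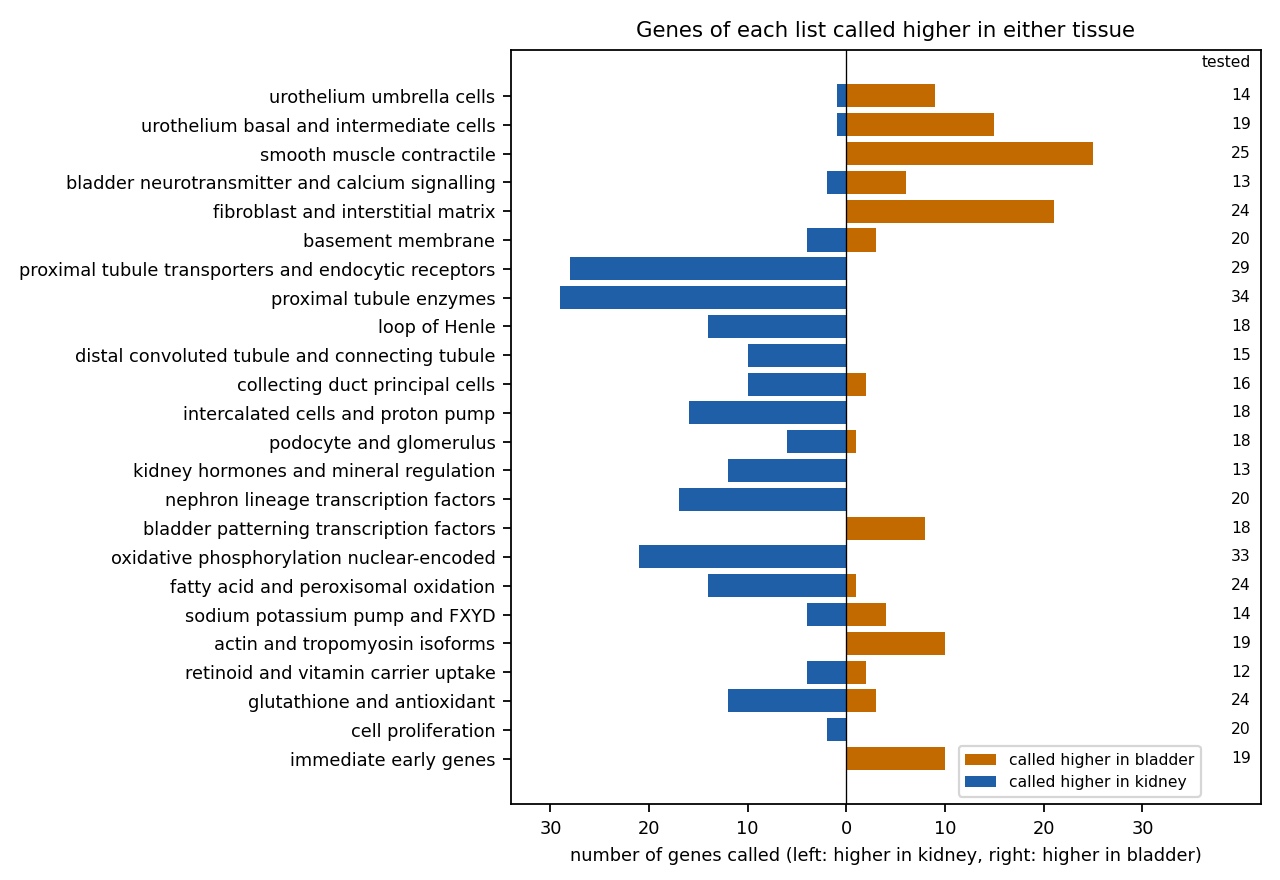
Number of genes of each list called higher in bladder (right) or in kidney (left), with the number tested at the right edge. All 25 contractile genes lie on the bladder side and 28 of 29 proximal tubule transporters on the kidney side, while the basement membrane and sodium pump lists have calls on both.

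Most genes of the mitochondrial and oxidative lists were called for kidney. Of 33 tested nuclear-encoded genes of oxidative phosphorylation, 21 were called for kidney and 0 for bladder, with a median log2 difference of -1.20. The mitochondrial ribosomal RNAs Rnr1 and Rnr2, from the mitochondrial genome, were both called for kidney, with log2 differences of -1.61 ± 0.11, adjusted p = 1.6e-46 and -1.57 ± 0.10, adjusted p = 3.3e-52. Of 25 listed mitochondrially encoded genes, only these 2 had an entry under the listed names, so the others were not examined. Atp5b, the catalytic subunit of ATP synthase, was at 658, 772 and 869 CPM in bladder and 1875, 2282 and 2499.7 CPM in kidney (log2 difference -1.61 ± 0.18, adjusted p = 6.1e-18). Sdhb, of succinate dehydrogenase, was at 21.8, 79.7 and 178 CPM in bladder and 299.5, 333 and 393 CPM in kidney (log2 difference -2.05 ± 0.31, adjusted p = 1.0e-09). Cox6c, a subunit of the same chain, was not called, at 775, 1029 and 1342 CPM in bladder and 648, 902 and 1056 CPM in kidney (log2 difference 0.15 ± 0.19, adjusted p = 0.65). Of 24 tested genes of fatty acid and peroxisomal oxidation, 14 were called for kidney and 1, Bdh1, for bladder. Hao2, a peroxisomal hydroxyacid oxidase, was at 0, 1.21 and 21.8 CPM in bladder and 353, 604 and 881 CPM in kidney (log2 difference -7.41 ± 0.39, adjusted p = 3.3e-70), and Ehhadh, the peroxisomal bifunctional enzyme, at 0, 2.1 and 13.7 CPM and 150.0, 248 and 389.9 CPM (log2 difference -6.13 ± 0.50, adjusted p = 2.4e-32). Acadm, which starts medium-chain oxidation in mitochondria, was at 21.8, 76.6 and 169 CPM in bladder and 454, 558 and 629 CPM in kidney (log2 difference -2.71 ± 0.28, adjusted p = 7.7e-21). Bdh1, a ketone body dehydrogenase, was at 155, 236 and 330.2 CPM in bladder and 61.9, 97.3 and 188 CPM in kidney (log2 difference 1.07 ± 0.33, adjusted p = 0.0099), and its call was lost in 4 of the 12 fits that left out 1 library (bladder Scx-/- replicate 2, bladder wild-type replicate 2, kidney Scx-/- replicates 1 and 3), with log2 differences of 0.88 to 0.98, without the genotype term and in each genotype alone.

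Several gene families had members called on each side. The urea transporters were one. Slc14a1, the urea transporter UT-B of urothelium, red cells and vessels, was at 28.1, 93.3 and 165 CPM in bladder and 0, 3.94 and 70.1 CPM in kidney (log2 difference 2.92 ± 0.65, adjusted p = 1.0e-04), with ranges that overlapped, and its call was lost in the Scx-/- libraries alone. Slc14a2, UT-A of the collecting duct, was 0 in all 6 libraries of bladder and at 77.3, 167 and 222 CPM in kidney, at least 135-fold higher. Of 308 tested solute carriers, 106 were called for kidney, where 8.08% of all genes were, and 9 for bladder (7 to 12 without any one library), where 6.98% were. Those called for bladder were Slc12a8, Slc14a1, Slc18a3, Slc24a3, Slc29a1, Slc35g1, Slc38a1, Slc38a2 and Slc7a4. Slc29a1, the equilibrative nucleoside carrier, was at 146, 281 and 378 CPM in bladder and 51.4, 76.3 and 111 CPM in kidney (log2 difference 1.65 ± 0.33, adjusted p = 1.2e-05).

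Genes of the sodium pump and its regulators had calls on both sides. The beta subunit Atp1b1 was at 66.3, 155 and 278 CPM in bladder and 3486, 4292 and 5605 CPM in kidney (log2 difference -4.89 ± 0.19, adjusted p = 7.0e-149), with no overlap. Atp1b3, another beta subunit, was at 68.7, 224 and 284 CPM and 94.3, 175 and 214 CPM, with a log2 difference of 0.17, and was not called (adjusted p = 0.77). The small FXYD proteins that tune the pump were divided. Fxyd2, the renal gamma subunit, was at 16, 23.6 and 39.3 CPM in bladder and 5958, 6348 and 6647 CPM in kidney, a log2 difference of -8.03. Fxyd3 was at 238, 358 and 776 CPM in bladder and 0, 3.76 and 20.6 CPM in kidney (log2 difference 5.58 ± 0.39, adjusted p = 3.4e-41), and Fxyd1, phospholemman, at 165, 239.5 and 281 CPM and 0, 15.9 and 38.7 CPM (log2 difference 3.69 ± 0.43, adjusted p = 8.8e-16). Fxyd4 went to kidney, at 0, 0 and 39.1 CPM in bladder and 78.8, 136 and 189.7 CPM in kidney (log2 difference -4.35 ± 0.61, adjusted p = 3.1e-11). Of 9 tested aquaporins, 5 were called for kidney and 1 for bladder. That member, the glycerol and water channel Aqp3, was at 231, 334 and 524 CPM in bladder and 69.3, 167 and 214 CPM in kidney (log2 difference 1.11 ± 0.29, adjusted p = 0.0011), with no overlap, but a log2 difference of 0.98, under the fold limit, without bladder wild-type replicate 1, and no call in the Scx-/- libraries alone.

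Tight junctions seal the gaps between epithelial cells. Of 18 tested claudins, 7 were called for kidney and 2, Cldn4 and Cldn23, for bladder, 1 of them without bladder wild-type replicate 3, beside 8.08% and 6.98% of all genes. Cldn2, the claudin that lets sodium through proximal tubule junctions, was at 0, 0 and 15.6 CPM in bladder and 431, 569 and 863 CPM in kidney (log2 difference -7.36 ± 0.39, adjusted p = 1.5e-74). Cldn4, a sealing claudin, was at 93.5, 149 and 379 CPM in bladder and 0, 17.7 and 40.2 CPM in kidney (log2 difference 3.09 ± 0.47, adjusted p = 1.0e-09). Of 20 tested basement membrane genes, 3 were called for bladder (5 without kidney Scx-/- replicate 1 or without kidney wild-type replicate 3 or by DESeq2, and 6 with RLE scaling or library totals) and 4 for kidney, beside the same shares of all genes. Type IV collagen, the sheet-forming collagen of basement membranes, had 3 patterns. The ubiquitous chains Col4a1 and Col4a2 were not called, with log2 differences of 0.31 ± 0.18, adjusted p = 0.29 and 0.19 ± 0.23, adjusted p = 0.61. The glomerular chains Col4a3 and Col4a4 were called for kidney. Col4a3 was at 0, 0 and 4.57 CPM in bladder and 173, 248 and 400.1 CPM in kidney, a ratio of 219 (95% counting interval 74.8 to 1065), and Col4a4 at 4.12, 29.4 and 41.2 CPM and 309, 447 and 579.6 CPM (log2 difference -4.21 ± 0.34, adjusted p = 6.1e-34). Col4a6, a chain of smooth muscle and epithelial basement membranes, went to bladder, at 41.2, 50.4 and 109 CPM against 0, 0 and 4.46 CPM in kidney, a ratio of 75.5 (95% counting interval 25.4 to 370.1), and its partner Col4a5 was not called (log2 difference 0.21 ± 0.38, adjusted p = 0.76). Among gap junction proteins, Gjb6, connexin 30, was at 70, 136 and 178 CPM in bladder and 0 in all 6 libraries of kidney, at least 157-fold higher, and Gjb2, connexin 26, was at 0, 3.57 and 20.6 CPM in bladder and 12.3, 68.7 and 159 CPM in kidney (log2 difference -3.64 ± 0.76, adjusted p = 2.9e-05).

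Among adhesion genes, a ligand and a subunit of its receptor were called for kidney. Npnt, nephronectin, a basement membrane ligand, was at 3.57, 15.8 and 82.4 CPM in bladder and 363, 722 and 1132 CPM in kidney (log2 difference -4.93 ± 0.50, adjusted p = 4.6e-08), and Itga8, a subunit of its integrin receptor, at 0, 6.89 and 18.3 CPM and 24.7, 42.7 and 62.5 CPM (log2 difference -2.65 ± 0.96, adjusted p = 0.04). The call of Itga8 was lost in 9 of the 12 fits that left out 1 library, with adjusted p of 0.055 to 0.13, and under RLE scaling, library totals, thinning and in each genotype alone. Of 26 tested integrin genes, 6 were called for bladder and 5 for kidney (3 without kidney Scx-/- replicate 1 or 2, in the wild-type libraries alone or on thinned counts, and 1 in the Scx-/- libraries alone), beside 6.98% and 8.08% of all genes. Itgb4, the subunit that anchors basal epithelium through hemidesmosomes, was at 44.2, 63.6 and 128 CPM in bladder and 0, 0.568 and 55.3 CPM in kidney (log2 difference 3.62 ± 0.85, adjusted p = 2.9e-04). Itgb3, a receptor subunit for matrix proteins, was at 61.7, 97.4 and 231 CPM in bladder and 0, 0 and 14.9 CPM in kidney (log2 difference 5.08 ± 0.73, adjusted p = 8.3e-11).

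Glutathione enzymes split as well. Of 24 tested glutathione and antioxidant genes, 12 were called for kidney and 3 for bladder. Gstm1, a glutathione transferase, took the largest mean share of bladder counts among all genes called for bladder, at 11441, 13600.4 and 19106 CPM against 681, 787 and 1163 CPM in kidney (log2 difference 3.93 ± 0.14, adjusted p = 4.0e-171). Gsta4, which clears lipid peroxidation products, was at 1004, 1291 and 1756 CPM in bladder and 53.4, 256 and 355 CPM in kidney (log2 difference 2.48 ± 0.22, adjusted p = 3.8e-28). On the kidney side, beside Gpx3, were Gpx1, at 265, 389 and 516 CPM in bladder and 1455, 1643 and 1912 CPM in kidney (log2 difference -2.22 ± 0.20, adjusted p = 2.2e-27), and Ggt1, the brush-border enzyme that breaks down glutathione, at 0, 2.36 and 3.4 CPM and 789, 926 and 1329 CPM (log2 difference -8.71 ± 0.37, adjusted p = 1.9e-120). Of 55 tested cytochrome P450 genes, 10 were called for kidney and 5 for bladder, where 8.08% and 6.98% of all genes were. The count for bladder was 3 without bladder Scx-/- replicate 2, kidney Scx-/- replicate 1 or 2 or kidney wild-type replicate 2, 2 with the replicate number as a block and in the Scx-/- libraries alone, and 1 in the wild-type libraries alone and with the filter on low counts. Cyp4f15 was the abundant one in bladder, at 82.3, 178 and 245 CPM against 0, 0 and 1.14 CPM in kidney, a ratio of 339 (95% counting interval 93.2 to 2803); of the other 4, Cyp2c29 and Cyp3a11 had their highest values in bladder Scx-/- replicate 2, the library with the most hepatocyte counts.

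**Figure D4:**
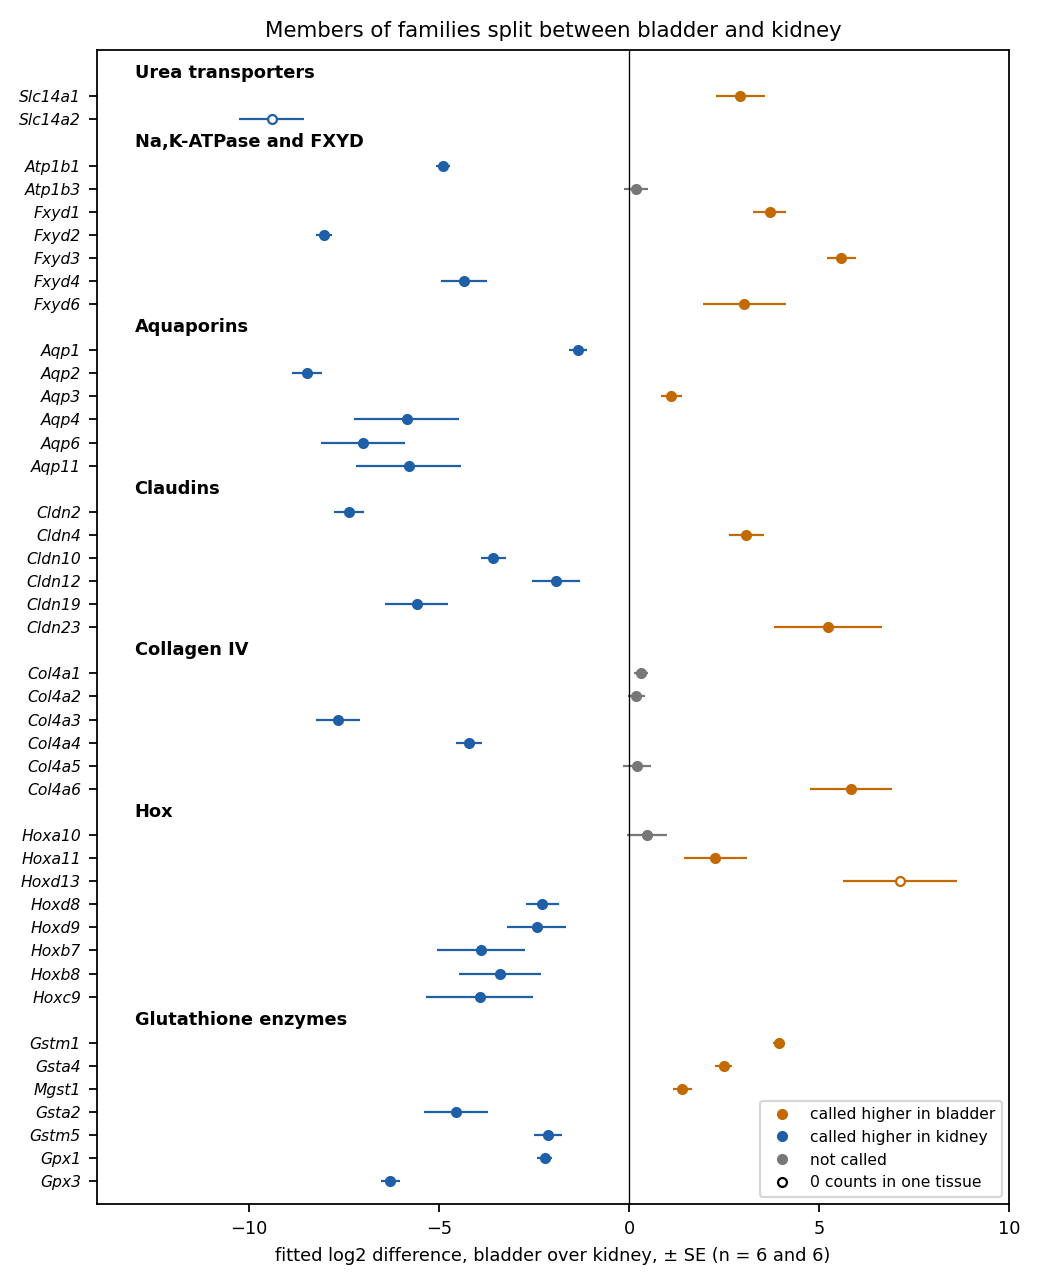
Fitted log2 difference, bladder over kidney, ± SE (6 libraries per tissue) for members of 7 gene families. Colours give the call, and open circles mark genes with 0 counts in one tissue, whose fitted value is no bound; each family holds calls on both sides of 0.

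Some groups were not tied to a single specialised cell. Of 75 tested cytosolic ribosomal protein genes, 23 were called for bladder and 0 for kidney, with a median log2 difference of 1.14, and together they took 25246 to 35170.2 CPM in bladder and 9966 to 14047 CPM in kidney. Rplp1, of the ribosomal stalk, was at 1913, 3886 and 4141 CPM in bladder and 846, 1240.4 and 1550.1 CPM in kidney (log2 difference 1.36 ± 0.16, adjusted p = 8.1e-16), and Rps14 at 1865, 2288 and 2695 CPM and 615, 747 and 837 CPM (log2 difference 1.51 ± 0.18, adjusted p = 7.8e-16). The median lies near the fold limit, and the number called was 18 to 24 without any one library and 31 by DESeq2. Of 19 tested immediate early genes, which respond within minutes to stimuli including dissection, 10 were called for bladder and 0 for kidney. Fos was at 11.9, 70.7 and 315 CPM in bladder and 0, 0.568 and 4.46 CPM in kidney (log2 difference 5.60 ± 0.77, adjusted p = 1.3e-11), and Junb at 54.9, 97.4 and 198 CPM and 0, 15.8 and 29.8 CPM (log2 difference 3.05 ± 0.61, adjusted p = 8.7e-06). The count was 7 without bladder Scx-/- replicate 2 and 3 in the Scx-/- libraries alone. Of 20 tested cell cycle genes, 2 were called for kidney (1 to 4 without any one library, 0 in the Scx-/- libraries alone), beside 8.08% of all genes, and 0 for bladder, and Mki67 was at 0, 0 and 17 CPM in bladder and 0, 8.83 and 50.6 CPM in kidney.

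Vessels and immune cells are part of both organs. Of 14 tested endothelial genes, 3 were called for kidney (5 without bladder Scx-/- replicate 2), beside 8.08% of all genes, and 0 for bladder, and their sum was 448 to 584 CPM in bladder and 829 to 1015 CPM in kidney. Plvap, the diaphragm protein of fenestrated vessels, was at 17, 26.4 and 43.7 CPM in bladder and 132, 188 and 272 CPM in kidney (log2 difference -2.89 ± 0.42, adjusted p = 2.1e-10). Of 13 tested macrophage and lymphocyte genes, 2 were called for bladder, beside 6.98% of all genes, and 0 for kidney. The count for bladder was 1 without any of 5 libraries (bladder wild-type replicate 1 or 2, bladder Scx-/- replicate 1, kidney wild-type replicate 1 and kidney Scx-/- replicate 1) and 0 in the Scx-/- libraries alone. Lyz2, lysozyme of myeloid cells, was at 28.1, 41.3 and 95.2 CPM in bladder and 0, 0.568 and 12.8 CPM in kidney (log2 difference 3.31 ± 1.00, adjusted p = 0.0081), a call lost without bladder wild-type replicate 1 (adjusted p = 0.056). The erythroid list summed to 1622 to 28132 CPM in bladder and 1776 to 6834 CPM in kidney, and Hbb-b1 was not called (adjusted p = 0.17). Adrenal and male accessory gland genes were absent or at trace level in both organs, with sums of at most 44.7 CPM and 3.40 CPM.

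Among the most abundant genes with a log2 difference under 0.5 in either direction were Rn18s-rs5, Malat1, Apoe, Gnas, Col4a1, Aldoa, Cox6c, Tns1 and Cd81. Malat1, an abundant nuclear non-coding RNA, was at 2482, 3455 and 3657 CPM in bladder and 2289, 3037 and 3561 CPM in kidney (log2 difference 0.03 ± 0.15, adjusted p = 0.92). Aldoa, the general glycolytic aldolase, was at 777, 1058 and 1271 CPM in bladder and 918, 1165 and 1452 CPM in kidney (log2 difference -0.28 ± 0.19, adjusted p = 0.35). Apoe, the lipid-carrying apolipoprotein, was likewise at 979.8, 2160.2 and 3267 CPM in bladder and 792, 2551 and 3434 CPM in kidney (log2 difference -0.12 ± 0.16, adjusted p = 0.67). None of these genes was called, which does not show that the levels were equal.

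Many of these genes were not particular to one of the 2 organs within the series. Among the 14 other tissues, Actg2 reached a mean of 3921 CPM in rectum, against 8809.7 in bladder, and Krt5 was higher in rectum (1048 CPM) than in bladder (424 CPM). Hoxd13 was also higher in rectum, at 189 CPM against 36 CPM. Upk1a, by contrast, had its next highest mean, 58.6 CPM, in rectum, and Upk3a 27.9 CPM in bone, against 2615 and 2468 CPM in bladder. Of the genes called for bladder with a mean of at least 100 CPM there, 227 of 555 had their highest mean of the 16 tissues in bladder, and of those called for kidney, 377 of 775 had it in kidney. These are means of deposited libraries set side by side, with no test.

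The difference between bladder and kidney was itself tested for dependence on genotype. The tissue by genotype term was past an adjusted p of 0.05 for 12 of 17199 genes (0.0698%), with a larger bladder-to-kidney ratio in Scx-/- for 10 and a smaller one for 2. Sprr1a, a cornified envelope protein of stressed epithelium, was at 3097, 3486 and 3055 CPM in the 3 wild-type bladders, 4588, 3814 and 4259 CPM in the Scx-/- bladders, 48.3, 68.2 and 103 CPM in the wild-type kidneys and 31.3, 6.14 and 8.25 CPM in the Scx-/- kidneys. Its term was 2.59 ± 0.37, adjusted p = 6.6e-08 on the log2 scale. All 3 Scx-/- kidneys were below the wild-type kidneys, and all 3 Scx-/- bladders were above the wild-type bladders by a smaller factor. Celf2, an RNA-binding splicing regulator, had 39, 44 and 8 counts in the wild-type kidneys and 0, 0 and 0 in the Scx-/- kidneys, with 277, 143 and 306 CPM in wild-type and 242, 134 and 239 CPM in Scx-/- bladders (term 6.93 ± 1.43, adjusted p = 0.0043). With no count in the Scx-/- kidneys, the size of this term depends on the prior count. Mpv17l, a small membrane protein abundant in kidney, was at 328, 722 and 394 CPM in wild-type kidneys and 87.2, 117 and 161 CPM in Scx-/- kidneys, with no overlap (term 3.61 ± 0.73, adjusted p = 0.0036). In bladder it had 13, 2 and 3 counts in the wild type and 14, 18 and 0 in Scx-/-.

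The other genes of this set, like Celf2 in kidney and Mpv17l in bladder, had low counts in one or both tissues. Gk, glycerol kinase, had 1, 0 and 0 counts in the wild-type and 0, 12 and 11 in the Scx-/- bladders, against 442, 563 and 436 CPM and 507, 516 and 532 CPM in the kidneys (term 4.89 ± 0.87, adjusted p = 1.9e-04). Slc4a4, the bicarbonate carrier of the proximal tubule, had 0, 1 and 1 counts in the wild-type and 10, 6 and 3 in the Scx-/- bladders (term 3.61 ± 0.81, adjusted p = 0.016). Aldh8a1 had 0, 0 and 0 and 0, 12 and 0 counts, and Serpina1d 0, 0 and 0 and 0, 92 and 0. In bladder, all of the Scx-/- counts of both genes, which hepatocytes also carry, were in replicate 2, the library with the most hepatocyte counts, and neither was called without it. The kidneys of the genotypes did not overlap for Aldh8a1, at 358, 517 and 350 CPM in the wild type and 293, 200 and 313 CPM in Scx-/-. Sprr1a and Gk were called without any one library, and the other 10 lost their call without at least 1. The number called was 7 without bladder wild-type replicate 2 or without any one of the 3 wild-type kidneys, and 21 without kidney Scx-/- replicate 3. By DESeq2, 2 genes passed, Sprr1a (adjusted p = 0.047) and Serpina1d (adjusted p = 2.1e-14), the latter with all its bladder counts in Scx-/- replicate 2. With edgeR's filter on low counts 0 of 9412 genes passed, where 510 had an unadjusted p under 0.05, against 926 of the 17199.

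**Figure D5:**
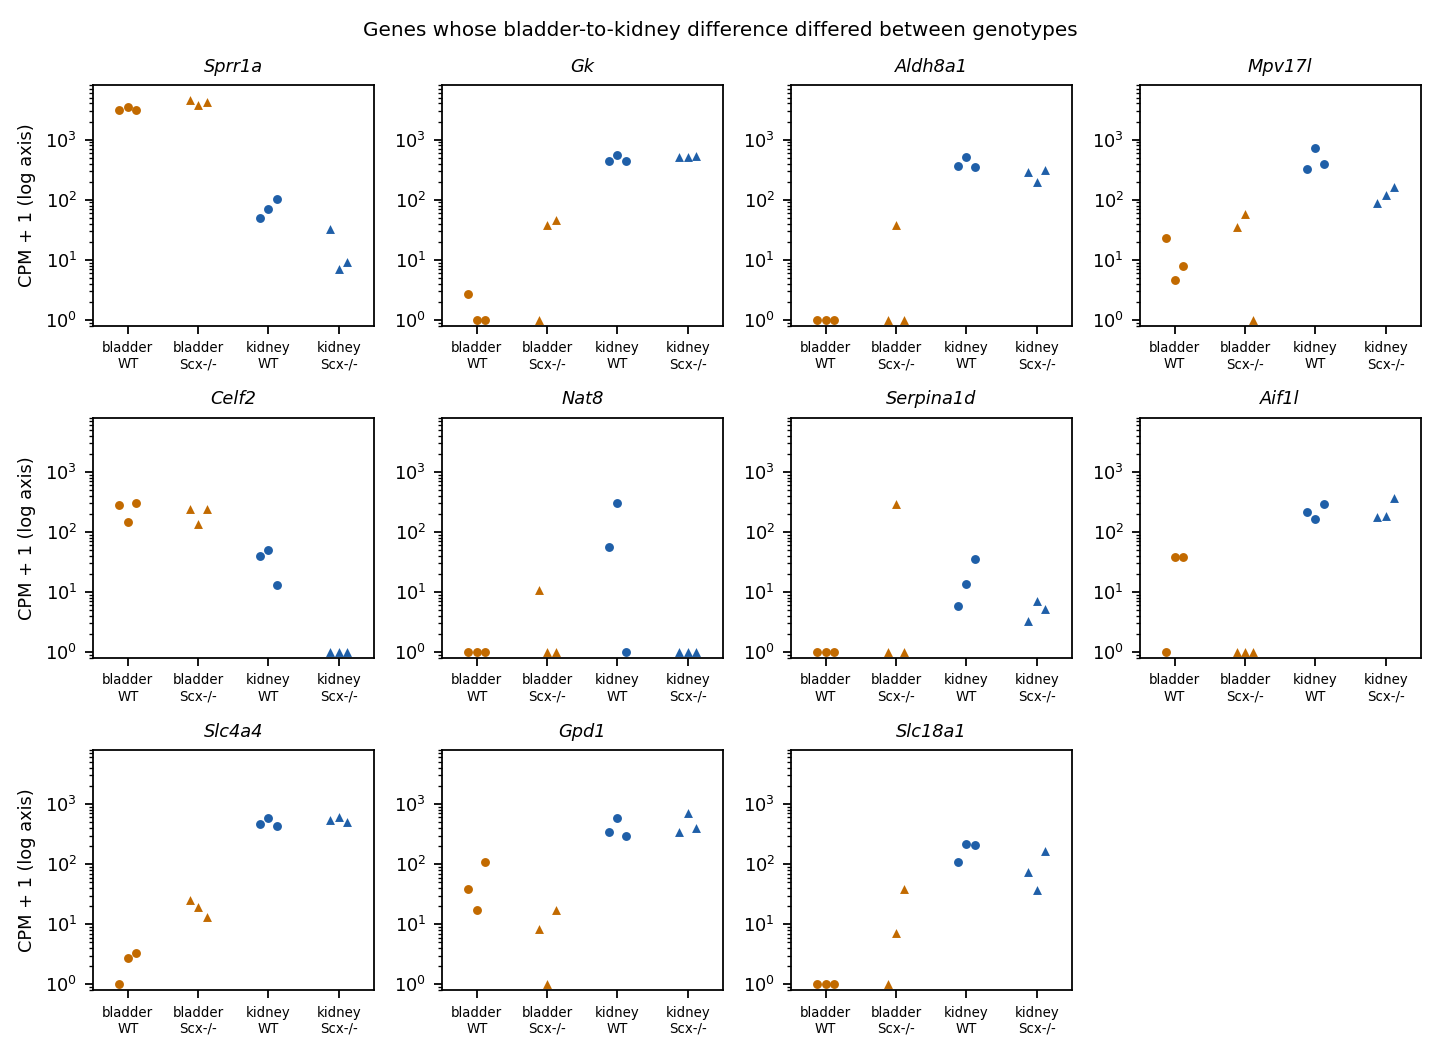
CPM + 1 in each of the 12 libraries (log axis) for genes with a tissue by genotype term past the threshold, 3 libraries per group. For Sprr1a, Celf2, Mpv17l and Aldh8a1 the kidneys of the genotypes separate. Aldh8a1 and most of the others have bladder libraries at or near 0.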

How the data were processed

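RNA-seq of whole bladders and kidneys of both genotypes was deposited as 1 table of raw counts per gene. Per the labels and the study's methods, total RNA was extracted with Trizol, reverse transcribed with barcoded primers, pooled, and sequenced on an Illumina X-Ten, and the authors mapped reads to mm10 with Bowtie2 and counted them with HTSeq. Tool versions, the annotation, the strand setting, strain, sex, use of molecular identifiers and whether 1 mouse gave both organs: not given in the sources used here. Reads of overlapping antisense genes can therefore not be told apart. Replicates are separate samples by their labels only, and p-values measure the spread between these samples, which may be technical. Values used here are whole-number counts, and CPM was computed from them.

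The 12 libraries were taken by the tissue in their labels. No gene filter beyond 1 count in 1 library was applied, which left 17199 of 41575 symbols. edgeR 4.0.16 (TMM scaling, robust quasi-likelihood test, tissue and genotype as terms) gave p-values with Benjamini-Hochberg adjustment over all tested genes. A second fit added the tissue by genotype term, called at an adjusted p under 0.05. Intervals are exact binomial at 95%, and folds against 0 counts use 3 counts. Intervals and bounds cover counting error only. The scripts were tested on simulated data. Alternatives were RLE scaling, library totals, edgeR's filter on low counts, DESeq2 1.42.0, no genotype term, the replicate number as a block, counts thinned to 242429 per library, each genotype alone, and leaving out each library. R 4.3.3 and Python 3.11.15 were used. Named genes were those with the largest fold or highest CPM, the abundant members of each list, the abundant genes of like level, and genes of the interaction. Gene lists were written from general knowledge of the tissues, and members and lists were chosen with earlier results of these data known. A few listed genes outside that rule were named after their values were seen, and some genes that the rule names are not reported here.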

Additional observations from a re-analysis of the deposited data

Results flagged for a closer look

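The bladder-to-kidney difference itself differed between Scx-/- and wild type for 12 genes by the tissue by genotype term of edgeR's quasi-likelihood test. Each value is the log2 ratio of the Scx-/- to the wild-type difference, positive where bladder over kidney was larger in Scx-/-, with 3 libraries in each group. The largest values, 12.99 for Nat8 and 10.69 for Serpina1d, come with 0 counts in whole groups and are no measure of size. Nat8 had 57, 264 and 0 counts in the wild-type kidneys and 0, 0 and 0 in the Scx-/- kidneys. Celf2 was at 6.93, Slc18a1 at 6.76, Aldh8a1 at 6.40 and Gk at 4.89. Celf2, Slc18a1, Aldh8a1 and Aif1l also had 0 counts in a whole group, so their values are no measure of size either. Slc4a4 and Mpv17l were both at 3.61 and Sprr1a at 2.59. Aif1l and Gpd1 had the opposite sign, at -6.54 and -2.92. Aif1l had 0, 21 and 16 counts in the wild-type and 0, 0 and 0 in the Scx-/- bladders, and Gpd1, a glycerol phosphate dehydrogenase abundant in fat, had 22, 9 and 47 and 3, 0 and 4, with the adipocyte sum highest in bladder wild-type replicate 3. The part of hepatocyte and adipocyte counts in these values was not tested.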

How the results depend on the processing

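Of the 17199 tested genes, the numbers called for bladder and for kidney stayed within 1.5 times of 1201 and 1390 under RLE scaling, library totals, the filter on low counts, DESeq2, no genotype term, thinning and the wild-type libraries alone. They were 584 and 675 in the Scx-/- libraries alone, and 1966 for bladder at an unadjusted p under 0.05. The Scx-/- libraries were as many as the wild-type ones, with lower totals in each tissue. Without 1 library the numbers called ranged from 1060 to 1195 and from 1210 to 1388. The interaction count of 12 was 2 by DESeq2, 0 with the filter, 2 on thinned counts, 913 at an unadjusted p under 0.05 with a fold above 2, and 7 to 21 without 1 library. Library totals moved the median log2 difference of all genes by 0.10.

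With the replicate number as a block, 1023 and 1282 genes were called and 4 passed the interaction. Deviations of same-numbered bladder and kidney libraries correlated at 0.022 to 0.060, under the limit of 0.1, although each library correlated best with its own number in 6 of 6 cases, a hint from the data and not the design.

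Of 134 called genes with a tissue value in the text, 118 kept their call in every alternative that gave a value, at most 21, and 8 lost it only in the Scx-/- libraries alone, Atp6v1b2, Bhmt2, Eln, Gjb2, Hoxd13, Itgb4, Myl6 and Slc14a1. The others are Aqp3, Bdh1, Chrm2, Hoxa11, Itga8, Lyz2, Pck1 and Ptger3. Calls were gained under at least 1 alternative by Cyp4b1, Hbb-b1, Pparg, Scnn1b, Trpv4, Upk3b and Wt1. No called gene with a value in the text changed direction. Uncalled genes did: in the Scx-/- libraries Col4a2 was at -0.0213, Col4a5 at -0.0949, Malat1 at -0.0270, Mki67 at 0.52 and Trpv4 at 0.42, in the wild-type libraries Apoe was at 0.24, Cox6c at -0.13 and Piezo1 at 0.10, and without 1 library Apoe ranged from -0.260 to 0.0712, Malat1 from -0.0488 to 0.140 and Tpm3 from -0.0157 to 0.246. Depth limits the low genes: 1 count is 4.12 CPM in the shallowest library.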
